A study of Homo sapiens with 16 samples.

Results

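The genes described here are 10 members and close partners of the Hippo pathway output complex: TEAD1, TEAD2, TEAD3, TEAD4, WWTR1, VGLL4, LATS1, NF2, AMOTL1 and SAV1. Their chromatin was read by CUT&Tag in HEK293, a line derived from human embryonic kidney, with an eGFP-YAP genotype. In CUT&Tag, an antibody on isolated nuclei directs a transposase to cut and tag the DNA around its target. From a shared set of 74404 peak intervals, 77 overlapped a member gene or lay within 10 kb of any of its GENCODE release 44 transcript starts. The antibodies were against CTCF, RAD21 (a cohesin subunit), H3K27ac (a histone acetylation found at active promoters and enhancers) and GFP, which reads eGFP-YAP and is called YAP1 below. For each of the 4 targets, 2 libraries came from vehicle-treated cells and 2 from cells in 200 mM sorbitol, a hyperosmotic stress, for 1 h. All 8 groups carried the eGFP-YAP genotype, so none shows cells with untagged YAP alone, and whether the line is a single clone is not given in the sources used here. The column names give the vehicle cells an earlier time than the sorbitol cells, so time and treatment cannot be told apart.

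TEAD proteins bind DNA through a conserved domain but need a coactivator, either YAP or its paralogue TAZ, the product of WWTR1. VGLL4 binds TEAD proteins in place of the coactivators and acts as a repressor. Upstream, the kinase LATS1 phosphorylates YAP and TAZ and keeps them out of the nucleus; SAV1 is the scaffold that joins LATS kinases to their activating kinases, NF2 (merlin) recruits LATS to the membrane, and AMOTL1, an angiomotin-like junction protein, binds YAP directly. Hyperosmotic stress is known to alter YAP localisation, and CTCF with cohesin shapes chromatin loops around genes.

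The 77 intervals were unevenly spread. TEAD1 had 19 and VGLL4 had 18, WWTR1 had 9, AMOTL1 had 8 and NF2 had 6, TEAD2 and TEAD4 had 4 each, and LATS1, SAV1 and TEAD3 had 3 each. Introns held 50 of the intervals and untranslated exon sequence 21, with 3 outside the gene, 2 over other exons and 1 over coding sequence. In all, 24 lay within 1 kb of a transcript start of their gene, and no interval belonged to more than 1 member. The interval that overlapped the canonical transcript start is called the start interval of a gene. All 10 genes had a start interval. Intervals of the same gene share its locus and are not replicates of each other.

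The sequences that follow show sites to which the results below refer, read from hg38. TEAD proteins bind the letters GGAATG, which were searched on both strands and which 26.0% of the 77 intervals held, against 23.1% of all 74404. The capitals mark GGAATG in intervals where YAP1 was strongest, where H3K27ac rose at a start, and where CTCF rose in an intron.
TEAD2 upstream, chr19:49363674-49363719, plus strand: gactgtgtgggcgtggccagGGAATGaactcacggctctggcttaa
AMOTL1 start interval, chr11:94769247-94769292, plus strand: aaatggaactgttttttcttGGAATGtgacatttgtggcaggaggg
VGLL4 intron, chr3:11600653-11600698, plus strand: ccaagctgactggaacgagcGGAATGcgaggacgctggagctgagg
The letters TGANTCA of the AP-1 factors, which often bind beside TEAD proteins at enhancers, were in 19.5% of the 77 intervals and in 12.6% of all. The core consensus of CTCF, a motif of 14 letters searched on both strands with at most 1 mismatch, was in 10.4% of the 77 and in 18.4% of all intervals. NF2 held 3 of these 8 sites. They are printed with a TEAD2 site, and the capitals mark the consensus match.
NF2 intron, lower with sorbitol, chr22:29635914-29635967, plus strand: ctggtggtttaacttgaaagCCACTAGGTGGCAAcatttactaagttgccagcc
NF2 intron, not called, chr22:29625739-29625792, plus strand: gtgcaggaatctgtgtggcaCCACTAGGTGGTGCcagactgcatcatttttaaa
NF2 intron, too few counts for the test, chr22:29689989-29690042, plus strand: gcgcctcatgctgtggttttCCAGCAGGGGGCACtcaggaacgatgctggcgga
TEAD2 intron, not called, chr19:49348051-49348104, minus strand: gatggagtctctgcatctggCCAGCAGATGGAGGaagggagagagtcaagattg
RefSeq promoter sequences (GRCh38.p14) were matched for 8 of the 10 genes. The 200 bases before the canonical start of TEAD3, where H3K27ac fell, are shown because they were the richest in G or C of the 8, at 85.0%. Capitals mark their 29 CG dinucleotides. The same stretch of TEAD2, where H3K27ac also fell, was 61.0% G or C, while those of AMOTL1 and LATS1, where it rose, were 76.0% and 73.5%. Whether the G or C content of these stretches goes with the direction of the change was not tested.
TEAD3, chr6:35497080-35497279, minus strand: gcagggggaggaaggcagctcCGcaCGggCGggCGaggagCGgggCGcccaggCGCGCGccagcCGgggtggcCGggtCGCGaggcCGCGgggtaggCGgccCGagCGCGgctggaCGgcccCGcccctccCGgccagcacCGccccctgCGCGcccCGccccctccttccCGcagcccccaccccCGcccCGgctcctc

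Libraries held between 1.19 and 8.84 M counts (M, 1e6) over all intervals. Mitochondrial intervals and the exons of the YAP1 gene, which are not among the 77, took a larger share of the CTCF, RAD21 and YAP1 counts with sorbitol. The mitochondrial share was 15.7% and 19.9% in the vehicle libraries of CTCF and 32.8% and 33.9% with sorbitol, and for YAP1 it was 36.5% and 38.1% against 55.4% and 57.8%. For H3K27ac it was between 1.95% and 2.08% in all 4 libraries. Counts are therefore compared after TMM scaling, which holds most intervals near no change. Scaling to the total count instead moved the median log2 fold change of all tested intervals by -0.98 (CTCF), -0.59 (RAD21), -1.42 (YAP1) and 0.15 (H3K27ac), so every direction below is relative to the other intervals of the same target. Starts of PAX2 and LHX1, which mark HEK293 cells, held H3K27ac counts in every library, while no interval lay within 1 kb of a start of ALB, APOA2, PTPRC, CD79A, KRT5 or KRT14.

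The labels do not say whether the 2 libraries of a group came from separate cultures, so p-values measure only the spread between these libraries. A lower count in these bulk libraries cannot tell fewer cells with a bound or acetylated site from less of it per cell. A test required enough counts in 2 of the 4 libraries of a target. An interval could thus enter through the counts of a single group, which favours a call in the direction of that group. It could be run at 68 of the 77 intervals for H3K27ac, 28 for CTCF, 22 for YAP1 and 12 for RAD21. The intervals that could not be tested had at most 19 counts in any H3K27ac library, 31 for CTCF, 14 for YAP1 and 29 for RAD21. Tests for all 4 targets were possible at 11 intervals and for no target at 5. In vehicle cells the median level over the 77 intervals was 10.5 ± 0.908 CPM per kb for H3K27ac (CPM, counts per 1e6 of TMM-scaled library size, per kb of interval; SD, n = 2 here and throughout), against 7.76 ± 0.0885 over all intervals. For CTCF the member median was 3.13 ± 0.488 CPM per kb against 5.97 ± 0.0776, for RAD21 5.96 ± 0.482 against 6.59 ± 0.369, and for YAP1 2.64 ± 0.0186 against 2.93 ± 0.00704. The members were thus more acetylated than the typical interval of the set and lower in CTCF.

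H3K27ac changed at 5 of the 10 starts, in both directions. It fell at the starts of TEAD2, TEAD3 and TEAD4, rose at the starts of AMOTL1 and LATS1, and was not called at the starts of TEAD1, WWTR1, VGLL4, NF2 and SAV1. Over the 68 tested intervals, 11 passed an adjusted p of 0.05 (edgeR quasi-likelihood test, Benjamini-Hochberg over all tested intervals), 4 higher and 7 lower. That is 16.2%, against a background of 23.1% of 56601 tested intervals, of which 8.59% were higher and 14.5% lower. Scaling to the total count gave 8 higher and 6 lower among the 68 (8117 and 5901 among all), and scaling to the weakest 25% of tested intervals gave 1 and 13 (1854 and 14666). The median log2 fold change of the tested members was 0.25 against 0.02 for all tested intervals.

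**Figure D1:**
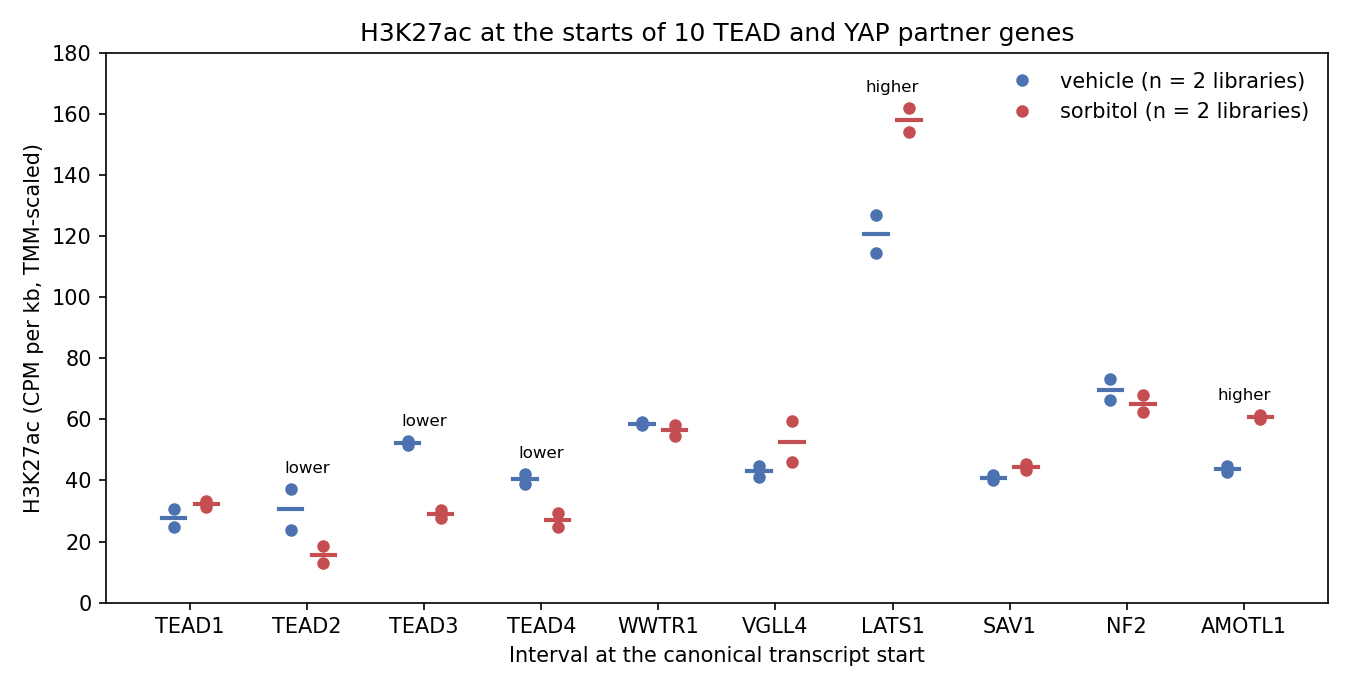
H3K27ac at the start interval of each of the 10 genes, in CPM per kb on TMM-scaled library sizes. Points are single libraries (2 vehicle, 2 sorbitol), lines are group means, and "higher" or "lower" marks intervals past the adjusted p of 0.05; both sorbitol points lie below both vehicle points at TEAD2, TEAD3 and TEAD4 and above them at LATS1 and AMOTL1.

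TEAD2, a TEAD gene known from early embryos, had the largest fall. The interval over its alternative start (chr19:49361327-49361921, hg38, untranslated exon sequence) had 27.2 and 23.9 CPM with vehicle and 7.67 and 9.57 CPM with sorbitol. Every sorbitol library was below every vehicle library, and the log2 fold change was -1.57 ± 0.19 (SE; edgeR adjusted p 2.4e-08). The start interval of TEAD2 (chr19:49361987-49362441) had 10.8 and 17 CPM against 8.42 and 5.84 CPM, a log2 fold change of -0.95 ± 0.24 (edgeR adjusted p 0.0037); the call was lost without H3K27ac vehicle replicate 2 (-0.60, edgeR adjusted p 0.17) or sorbitol replicate 2 (-0.72, edgeR adjusted p 0.066). The upstream interval (chr19:49363334-49364005), which lies 877 bp from the nearest TEAD2 start and covers a start of the neighbouring gene DKKL1, had 40.0 and 28.4 CPM against 18.6 and 19.4 CPM, a log2 fold change of -0.85 ± 0.15 (edgeR adjusted p 4.9e-05). Its TEAD letters are printed above as the TEAD2 upstream site. The remaining TEAD2 interval, in an intron, had a log2 fold change of 0.04 and was not called, so the falls at TEAD2 were in its 3 intervals near transcript starts.

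TEAD3, whose CG-rich promoter is printed above, had 73.0 and 74.7 CPM of H3K27ac at its start interval (chr6:35496157-35497571) with vehicle and 39.4 and 43.1 CPM with sorbitol. The groups were far apart, with a log2 fold change of -0.84 ± 0.10 (edgeR adjusted p 1.1e-08), and the call held in all 15 alternative settings. At TEAD4 the start interval (chr12:2958809-2960361) had 60.3 and 65.6 CPM against 45.6 and 38.5 CPM, a log2 fold change of -0.58 ± 0.10 (edgeR adjusted p 4.4e-05). With offsets corrected for GC content it was -0.25 (edgeR adjusted p 0.08). The interval after it (chr12:2960446-2960946), 502 bp from a TEAD4 start, had 22.7 and 15.0 CPM against 10.9 and 10.7 CPM, a log2 fold change of -0.81 ± 0.20 (edgeR adjusted p 0.0028). Without H3K27ac vehicle replicate 1 its value was -0.49 (edgeR adjusted p 0.19).

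TEAD1, the TEAD gene with the most intervals, was not called at its start. The start interval (chr11:12673986-12675381) had 34.5 and 43.0 CPM with vehicle and 43.7 and 46.3 CPM with sorbitol, a log2 fold change of 0.22 ± 0.11 (edgeR adjusted p 0.17). The difference in response between TEAD1 and the other TEAD genes was not tested. An intron interval of TEAD1 (chr11:12723835-12724179), 48332 bp from the nearest TEAD1 start, rose from 1.45 and 2.29 CPM to 3.89 and 5.59 CPM, a log2 fold change of 1.33 ± 0.41 (edgeR adjusted p 0.017). This was the largest rise among the 11 called intervals, and it came from a weak interval with 9 and 14 vehicle counts. Without H3K27ac sorbitol replicate 2 it was 1.05 (edgeR adjusted p 0.19), and without vehicle replicate 1 it was 1.03 (edgeR adjusted p 0.14).

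Among the coactivator and the competitor of YAP, WWTR1 had 122.0 and 120.0 CPM at its start (chr3:149656559-149658624) with vehicle and 120.0 and 113.0 CPM with sorbitol. The groups overlapped, and the log2 fold change was -0.05 ± 0.07 (edgeR adjusted p 0.63). VGLL4 has several promoters, with calls in both directions, and the difference between them was not tested. The interval just inside its canonical transcript (chr3:11642572-11643581) rose from 49.2 and 46.8 CPM to 60.9 and 58.6 CPM, a log2 fold change of 0.32 ± 0.10 (edgeR adjusted p 0.015). A promoter upstream of it (chr3:11718774-11720007) fell from 59.5 and 53.5 CPM to 47.4 and 44.1 CPM, a log2 fold change of -0.30 ± 0.10 (edgeR adjusted p 0.027). The start interval itself (chr3:11643713-11644103) had 16.1 and 17.5 CPM against 23.2 and 18.0 CPM and was not called (0.30 ± 0.17, edgeR adjusted p 0.21). Both VGLL4 calls were small and left the threshold when single libraries were omitted, the rise at 0.27 (edgeR adjusted p 0.11) without vehicle replicate 2 and 0.30 (edgeR adjusted p 0.085) without sorbitol replicate 1, and the fall at -0.23 (edgeR adjusted p 0.22) without vehicle replicate 1 and -0.25 (edgeR adjusted p 0.16) without sorbitol replicate 2. With GC-corrected offsets the fall was -0.04 (edgeR adjusted p 0.81). Scaling to the weakest 25% of tested intervals left the rise at 0.05 (edgeR adjusted p 0.74).

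Of the upstream regulators, LATS1 was the most acetylated at its start (chr6:149717321-149718455). It had 130.0 and 144.0 CPM with vehicle and 175.0 and 184.0 CPM with sorbitol. The groups did not overlap, and the log2 fold change was 0.40 ± 0.07 (edgeR adjusted p 2.6e-05). The LATS1 start interval also covers a transcript start of another annotated gene, so its counts cannot be assigned to LATS1 alone. AMOTL1, whose start interval (chr11:94768054-94769864) holds the TEAD letters printed above, rose from 77.7 and 81.1 CPM to 111.0 and 109.0 CPM, a log2 fold change of 0.47 ± 0.08 (edgeR adjusted p 1.1e-05) that was called in all 15 alternative settings. LATS1 was called in 13 of 15. Scaling to the weakest 25% of tested intervals gave it 0.13 (edgeR adjusted p 0.18). NF2 had 71.9 and 79.6 CPM against 67.7 and 73.7 CPM at its start (chr22:29603120-29604205), groups that overlap (-0.10 ± 0.09, edgeR adjusted p 0.43). SAV1 had 60.9 and 63.6 CPM against 65.9 and 69.2 CPM at its start (chr14:50667236-50668757), a log2 fold change of 0.12 ± 0.09 (edgeR adjusted p 0.37).

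Per kb, the vehicle level of H3K27ac at the starts was highest at LATS1, at 120.0 ± 8.59 CPM per kb, which placed it above 99.6% of tested intervals. NF2 followed at 69.7 ± 5.03, WWTR1 at 58.6 ± 0.579 and TEAD3 at 52.2 ± 0.848 CPM per kb. AMOTL1 (43.8 ± 1.33), VGLL4 (43.0 ± 2.49), SAV1 (40.9 ± 1.24) and TEAD4 (40.5 ± 2.40 CPM per kb) were within their spread of each neighbour in this order. TEAD2 had 30.5 ± 9.64 and TEAD1 27.8 ± 4.31 CPM per kb, which do not differ beyond their spread. With sorbitol AMOTL1 stood at 60.9 ± 0.917 CPM per kb, near NF2 at 65.1 ± 3.89, and TEAD3 stood at 29.2 ± 1.85, near TEAD4 at 27.1 ± 3.21 CPM per kb.

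CTCF changed in both directions at these genes, with rises at the promoters of TEAD2, TEAD3 and TEAD4 and falls in introns of TEAD1, TEAD4 and NF2. Of 28 tested intervals 13 passed (edgeR, adjusted as above), 7 higher and 6 lower. That is 46.4%, beside a background of 40.2% of 39261 tested intervals, of which 19.5% were higher and 20.7% lower. Scaling to the total count gave 2 higher and 16 lower among the 28 (2109 and 21042 among all), scaling to the weakest 25% gave 8 and 4 (10225 and 5981), and GC-corrected offsets gave 3 and 5 (5473 and 6766). The median log2 fold change of the tested members was -0.28, and -0.06 over all tested intervals.

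**Figure D2:**
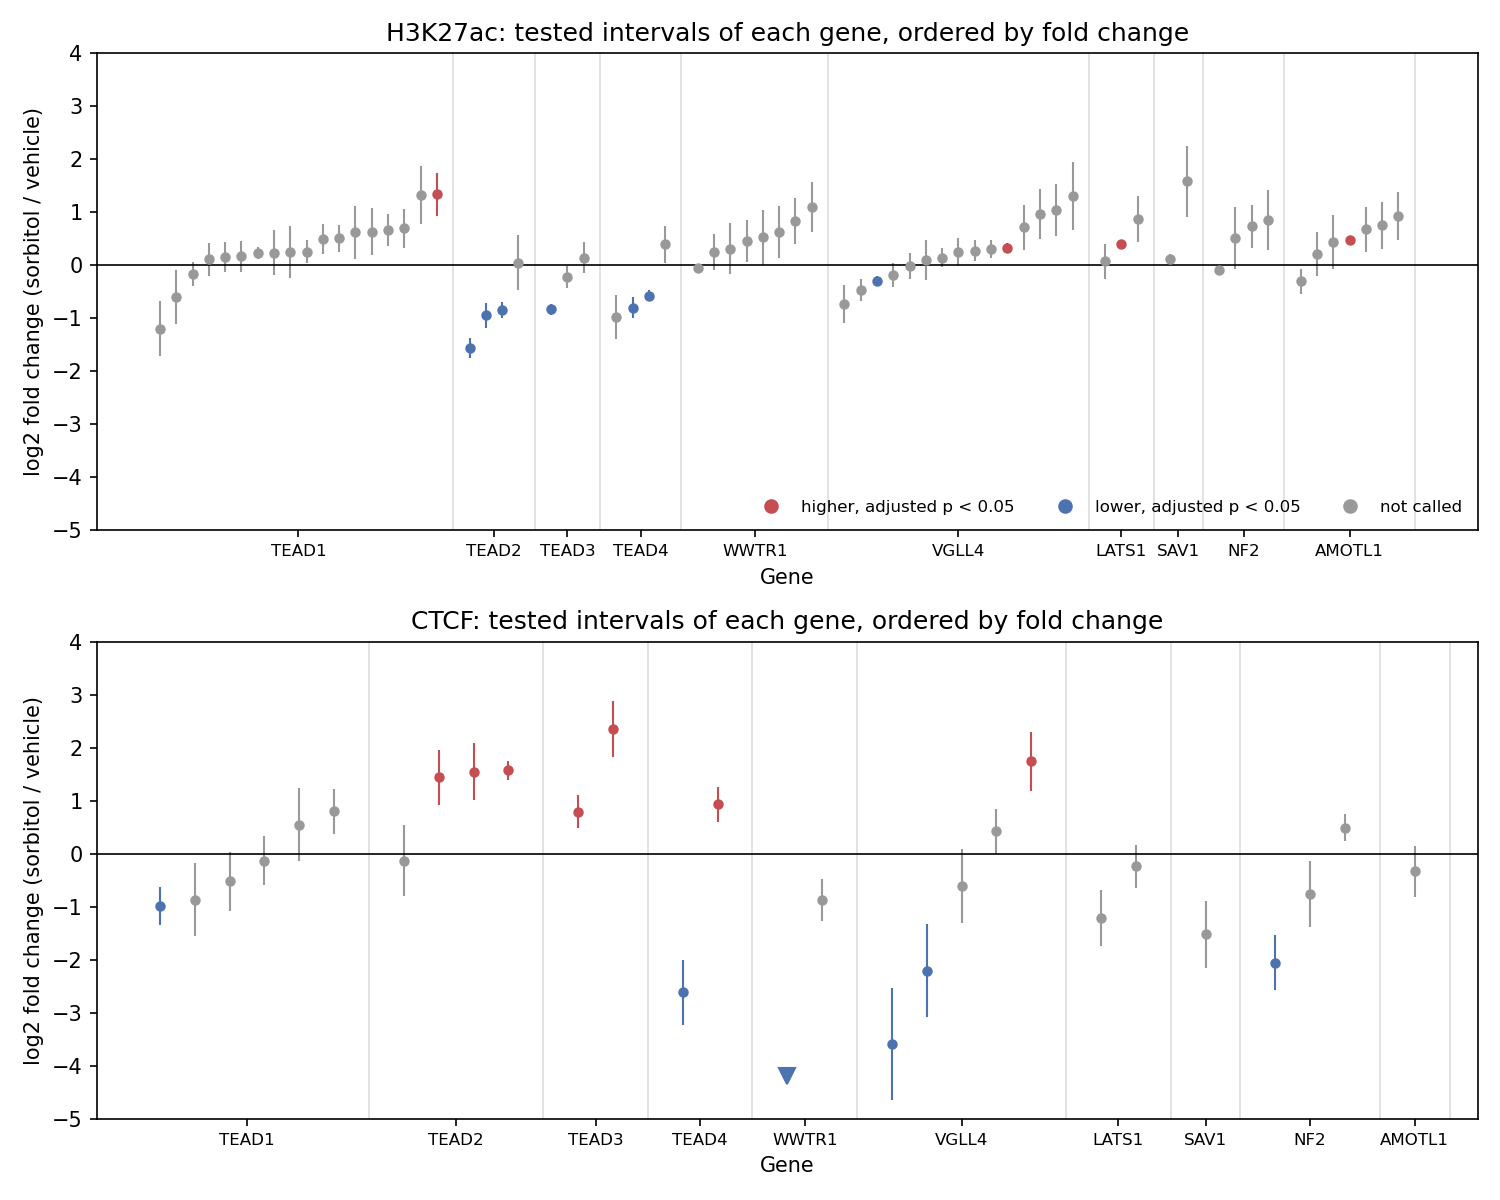
Log2 fold change (sorbitol over vehicle, TMM scaling) of every tested interval of each gene for H3K27ac (68 intervals, top) and CTCF (28 intervals, bottom), with bars of 1 standard error; colours mark calls at an adjusted p of 0.05. The triangle at WWTR1 stands for an interval with 0 counts in both sorbitol libraries, drawn at the edge and not at its fitted value; TEAD2, TEAD3 and TEAD4 show lower H3K27ac and higher CTCF calls.

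The strongest CTCF interval of the 77 was the TEAD2 upstream interval, with 31.2 ± 0.307 CPM per kb in vehicle cells. It went from 21.1 and 20.8 CPM to 63.1 and 61.8 CPM. The raw counts were 136 and 88 against 122 and 126, so the size of this rise also depends on the TMM-scaled library sizes. Replicates were close and far from the other group, with a log2 fold change of 1.57 ± 0.18 (edgeR adjusted p 4.0e-07), called in all 15 alternative settings and 0.59 under scaling to the total count. No match to the CTCF consensus lay in this interval. At the other TEAD2 promoter intervals CTCF counts were low. The alternative start had 20 and 8 counts in vehicle cells against 16 and 14 (1.55 ± 0.54, edgeR adjusted p 0.026), and the start interval had 16 and 14 against 17 and 14 counts (1.44 ± 0.52, edgeR adjusted p 0.03). Raw counts there were alike in both groups, and the fold changes follow from the TMM-scaled library sizes; under scaling to the total count they were 0.56 and 0.47, not called. When a replicate was left out the former ranged from 1.27 to 1.95 and the latter from 1.21 to 1.63, and each lost its call in 3 of 4 omissions. GC-corrected offsets gave 0.95 (edgeR adjusted p 0.18) and 0.75 (edgeR adjusted p 0.28).

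TEAD3 gained CTCF in an intron (chr6:35490070-35490582), 6368 bp from the nearest TEAD3 start. This interval entered the test through its sorbitol counts alone. Counts were 11 and 9 with vehicle and 22 and 17 with sorbitol, or 1.71 and 2.13 CPM against 11.4 and 8.34 CPM. The log2 fold change of 2.36 ± 0.53 (edgeR adjusted p 0.0013) was the largest CTCF rise among the 28 tested intervals, it was called in all 14 alternative settings that gave a value, and it was 1.38 under scaling to the total count. Its central sequence is printed because no CTCF consensus was found in the interval.
TEAD3 intron, CTCF higher, chr6:35490177-35490476, plus strand: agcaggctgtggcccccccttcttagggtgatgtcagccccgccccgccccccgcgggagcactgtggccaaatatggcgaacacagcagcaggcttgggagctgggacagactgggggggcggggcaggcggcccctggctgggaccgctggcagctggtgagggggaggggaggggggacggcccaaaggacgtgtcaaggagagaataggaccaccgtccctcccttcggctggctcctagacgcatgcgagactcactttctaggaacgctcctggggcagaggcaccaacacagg
At the TEAD3 start CTCF had 14.6 and 8.04 CPM with vehicle and 20.2 and 20.1 CPM with sorbitol (0.79 ± 0.31, edgeR adjusted p 0.044), and at the TEAD4 start 7.60 and 8.28 CPM against 14.5 and 15.7 CPM (0.93 ± 0.33, edgeR adjusted p 0.03). Neither direction was stable. GC-corrected offsets gave -0.41 at TEAD3 and -0.17 at TEAD4, and scaling to the total count gave -0.20 and -0.05. In the 4 fits that leave out a library, the TEAD3 value ranged from 0.46 to 1.30 and the TEAD4 value from 0.84 to 0.99, and the call was lost in 3 of the 4 fits at each gene. A VGLL4 intron interval (chr3:11600459-11601108), whose TEAD letters are printed above, went from 2.79 and 1.89 CPM to 11.4 and 4.91 CPM (1.74 ± 0.56, edgeR adjusted p 0.017). The call was lost without CTCF sorbitol replicate 1 (1.03, edgeR adjusted p 0.28), vehicle replicate 1 (2.05, edgeR adjusted p 0.052) or vehicle replicate 2 (1.52, edgeR adjusted p 0.12).

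CTCF fell in introns of TEAD4 and NF2, at intervals that entered the test through their vehicle counts alone. The TEAD4 intron interval (chr12:3034143-3034583), 23099 bp from the nearest TEAD4 start, went from 8.07 and 7.81 CPM to 1.55 and 0.981 CPM, or from 52 and 33 counts to 3 and 2. Its log2 fold change was -2.62 ± 0.62 (edgeR adjusted p 0.0019) and the call held in all 14 alternative settings that gave a value. The same libraries gave TEAD4 a rise at its start, which GC-corrected offsets reversed, and this fall inside the gene. The NF2 intron interval that holds the printed consensus site (chr22:29635544-29636176) went from 10.9 and 8.04 CPM to 1.55 and 2.94 CPM, a log2 fold change of -2.06 ± 0.52 (edgeR adjusted p 0.0035). Without CTCF vehicle replicate 1 it was -1.83 (edgeR adjusted p 0.085) and with GC-corrected offsets -1.31 (edgeR adjusted p 0.069). The neighbouring NF2 consensus site (chr22:29625578-29625914) had 4.50 and 4.02 CPM against 3.10 and 1.96 CPM and was not called (-0.76 ± 0.62, edgeR adjusted p 0.34). The third NF2 site (chr22:29689790-29690118) had 14 and 27 counts in vehicle cells but 2 and 1 in sorbitol, too few for the test.

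The other CTCF falls were a TEAD1 intron and weak intervals of VGLL4 and WWTR1. In the TEAD1 intron (chr11:12893837-12894528) CTCF went from 12.4 and 18.0 CPM to 7.76 and 7.36 CPM (-0.99 ± 0.36, edgeR adjusted p 0.031); leaving out single libraries gave -1.27 to -0.72, with the call lost in 3 of 4 omissions, and GC-corrected offsets gave -0.30 (edgeR adjusted p 0.55). The VGLL4 start interval had 20 and 16 vehicle counts against 1 and 0, a ratio of vehicle to sorbitol of 13.4 after scaling (95% exact counting interval 2.26 to 544.0). An interval 2881 bp from another VGLL4 start (chr3:11774231-11774576) had 25 and 14 against 3 and 0 counts, a ratio of 4.84 (1.54 to 24.5). The WWTR1 interval (chr3:149717532-149717831), 14259 bp from the nearest WWTR1 start, had 22 and 13 counts with vehicle and none with sorbitol, at least 4.34-fold lower against a floor of 3 counts over the group. These 3 intervals passed the test (edgeR adjusted p 0.01, 0.049 and 0.0031). They entered it through their vehicle counts alone, so only a fall could have been called there. The bounds cover counting error only. Leaving out single libraries ended the call in 3 of 4 fits at both VGLL4 intervals and in 1 of 4 at WWTR1.

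At the starts of NF2, TEAD1, AMOTL1, LATS1, SAV1 and WWTR1 CTCF was not called. NF2 had 18.3 and 17.5 CPM against 30.0 and 20.6 CPM (0.49 ± 0.25, edgeR adjusted p 0.12), and SAV1 had 5.43 and 6.39 CPM against 3.10 and 0.981 CPM (-1.52 ± 0.63, edgeR adjusted p 0.057). In both cases the groups did not overlap but the fit did not pass. The SAV1 start entered the test through its vehicle counts alone, so only a fall could have been called there. The log2 fold changes of the others were 0.80 at TEAD1, -0.33 at AMOTL1, -0.24 at LATS1 and -0.87 at WWTR1. Scaling to the total count turned the values at NF2 (-0.49) and TEAD1 (-0.17).

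The CTCF and H3K27ac calls met at the TEAD promoters. Of 24 member intervals tested for both targets, 5 were called higher for CTCF and lower for H3K27ac: the 3 TEAD2 intervals near its starts and the start intervals of TEAD3 and TEAD4. The other 3 combinations of direction had no member. With GC-corrected offsets only 1 of the 5, the TEAD2 upstream interval, kept its CTCF call, and the CTCF values at the TEAD3 and TEAD4 starts changed sign. Among all 30189 intervals tested for both, 8.90% had higher CTCF with lower H3K27ac, 2.15% were higher for both, 1.06% had lower CTCF with higher H3K27ac and 1.27% were lower for both. CTCF and H3K27ac come from separate libraries and share no control samples. Base composition moved with both calls, and its part in the result was not tested beyond the GC-corrected offsets given above. The median GC content was 65.7% in member intervals with higher CTCF, 50.4% in those with lower CTCF and 59.7% in those not called, beside 64.3%, 49.4% and 56.6% over all tested intervals. For H3K27ac the member medians were 59.5% where it rose, 67.0% where it fell and 54.1% where it was not called, beside 57.0%, 63.8% and 55.2%. Across the 28 tested member intervals the Pearson correlation of GC content with the CTCF log2 fold change was 0.55, and it was 0.46 across all 39261. For H3K27ac it was -0.4 across the 68 tested member intervals and -0.22 across all 56601. The intervals of a target share the same 4 libraries.

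**Figure D3:**
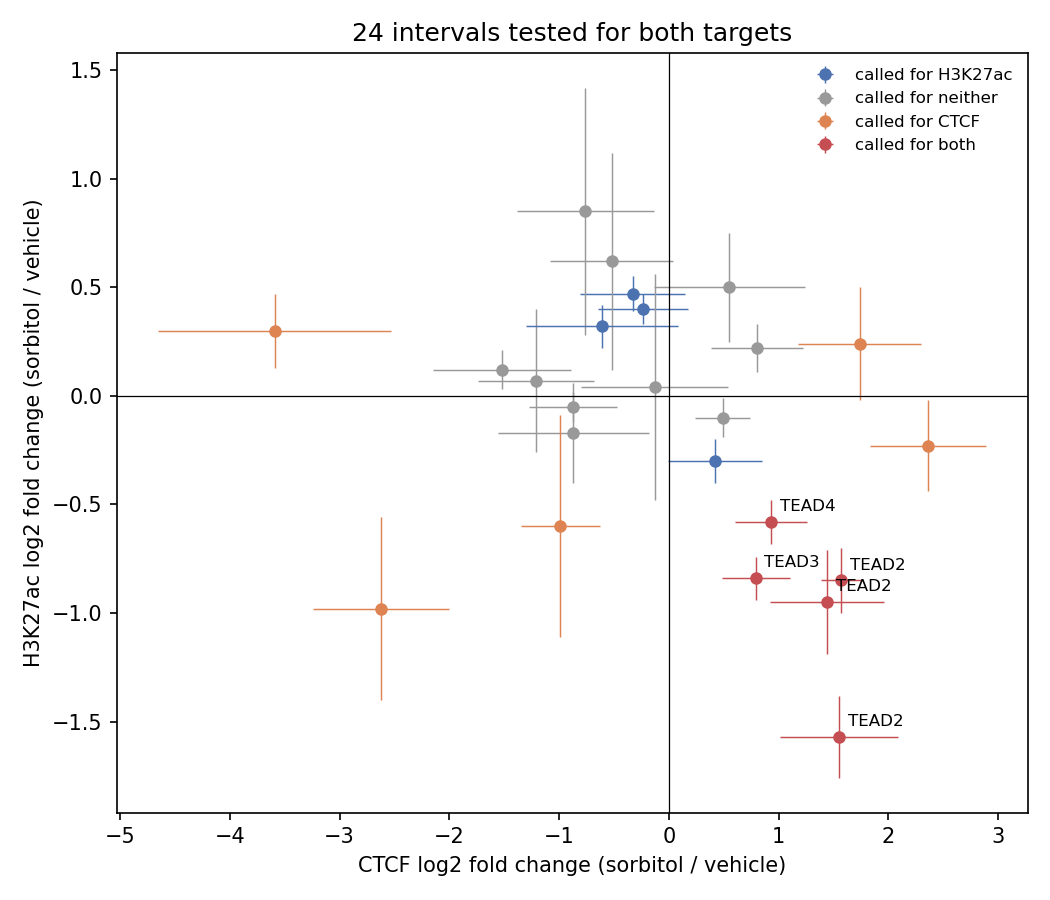
CTCF against H3K27ac log2 fold change (sorbitol over vehicle, TMM scaling) at the 24 intervals tested for both, with bars of 1 standard error; colours show which target was called. The 5 intervals called for both lie at higher CTCF and lower H3K27ac and belong to TEAD2, TEAD3 and TEAD4.

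YAP1, read through the GFP tag, was strongest at TEAD2. The TEAD2 upstream interval had 48.3 and 45.4 CPM with vehicle and 39.3 and 53.3 CPM with sorbitol. Its vehicle level of 69.7 ± 3.07 CPM per kb was above 99.1% of tested YAP1 intervals. The groups overlapped, with a log2 fold change of -0.04 ± 0.21 (edgeR adjusted p 0.94), although CTCF rose and H3K27ac fell in the same interval. The DKKL1 start lies there too, so these counts cannot be assigned to TEAD2 alone.

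Below it in vehicle level were the NF2 start at 25.7 ± 4.49 CPM per kb, an AMOTL1 intron interval at 17.8 ± 2.79 and the LATS1 start at 17.5 ± 0.870 CPM per kb, the last pair within their spread. The starts of TEAD4 (11.3 ± 0.0481), TEAD3 (9.11 ± 3.81), VGLL4 (8.93 ± 2.63), TEAD1 (8.69 ± 1.68), WWTR1 (8.44 ± 0.171), TEAD2 (7.51 ± 1.04), SAV1 (5.53 ± 0.436) and AMOTL1 (4.86 ± 0.534 CPM per kb) followed, and from TEAD4 to TEAD2 neighbours in this order did not differ beyond their spread. The AMOTL1 intron interval (chr11:94737313-94737701) lies 30641 bp from the nearest AMOTL1 start and 2568 bp from a start of another gene, PIWIL4-AS1. YAP1 there exceeded the AMOTL1 promoter, while H3K27ac was only 4.17 ± 1.14 CPM per kb. The central bases of this interval are printed because it held neither GGAATG nor TGANTCA.
AMOTL1 intron, YAP1, chr11:94737358-94737657, plus strand: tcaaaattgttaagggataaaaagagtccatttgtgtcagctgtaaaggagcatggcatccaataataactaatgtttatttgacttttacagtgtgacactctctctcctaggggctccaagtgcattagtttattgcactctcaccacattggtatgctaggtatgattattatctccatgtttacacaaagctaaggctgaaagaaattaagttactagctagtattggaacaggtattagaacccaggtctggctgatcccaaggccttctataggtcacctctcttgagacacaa

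With sorbitol no tested member interval passed for YAP1. Of 22 tested intervals 0 were called by edgeR and 0 by DESeq2, beside a background of 6.83% of 22765 tested intervals called by edgeR. An unadjusted edgeR p under 0.05 was found at 6 of the 22, a level for which no share over all intervals is given here. The median log2 fold change was -0.03 for the tested members and -0.04 for all tested intervals. The LATS1 start came nearest, with 19.1 and 20.5 CPM against 7.74 and 11.8 CPM and a log2 fold change of -1.06 ± 0.33 (edgeR adjusted p 0.065). The TEAD4 start had 17.7 and 17.6 CPM against 7.15 and 11.8 CPM (-0.94 ± 0.35, edgeR adjusted p 0.13), and the AMOTL1 intron interval had 6.16 and 7.70 CPM against 2.98 and 0.846 CPM (-1.72 ± 0.66, edgeR adjusted p 0.14). In each of these the groups did not overlap. The AMOTL1 intron interval entered the test through its vehicle counts alone, so only a fall could have been called there. The highest values were in TEAD3 introns, at 1.62 ± 0.61 (chr6:35485554-35485920, edgeR adjusted p 0.13) and 0.92 ± 0.60 in the interval where CTCF rose (edgeR adjusted p 0.42). A VGLL4 intron interval (chr3:11750088-11750287) had 6.21 ± 0.399 CPM per kb with vehicle and 24.6 ± 1.10 with sorbitol, but both groups held 8 and 6 raw counts, too few for the test.

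The sign of YAP1 at these intervals depended on the scaling. With libraries scaled to the total count, 17 of the 22 were called lower and none higher, beside 63.5% of all 22765 tested intervals called lower under that scaling. The LATS1 start then had a log2 fold change of -2.48 and the TEAD2 upstream interval -1.48, while the median of all tested intervals was -1.46. The members again lay on both sides of that median, with log2 fold changes from -3.11 at the AMOTL1 intron to 0.20 at the TEAD3 intron. The AMOTL1 intron interval entered this fit too through its vehicle counts alone.

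**Figure D4:**
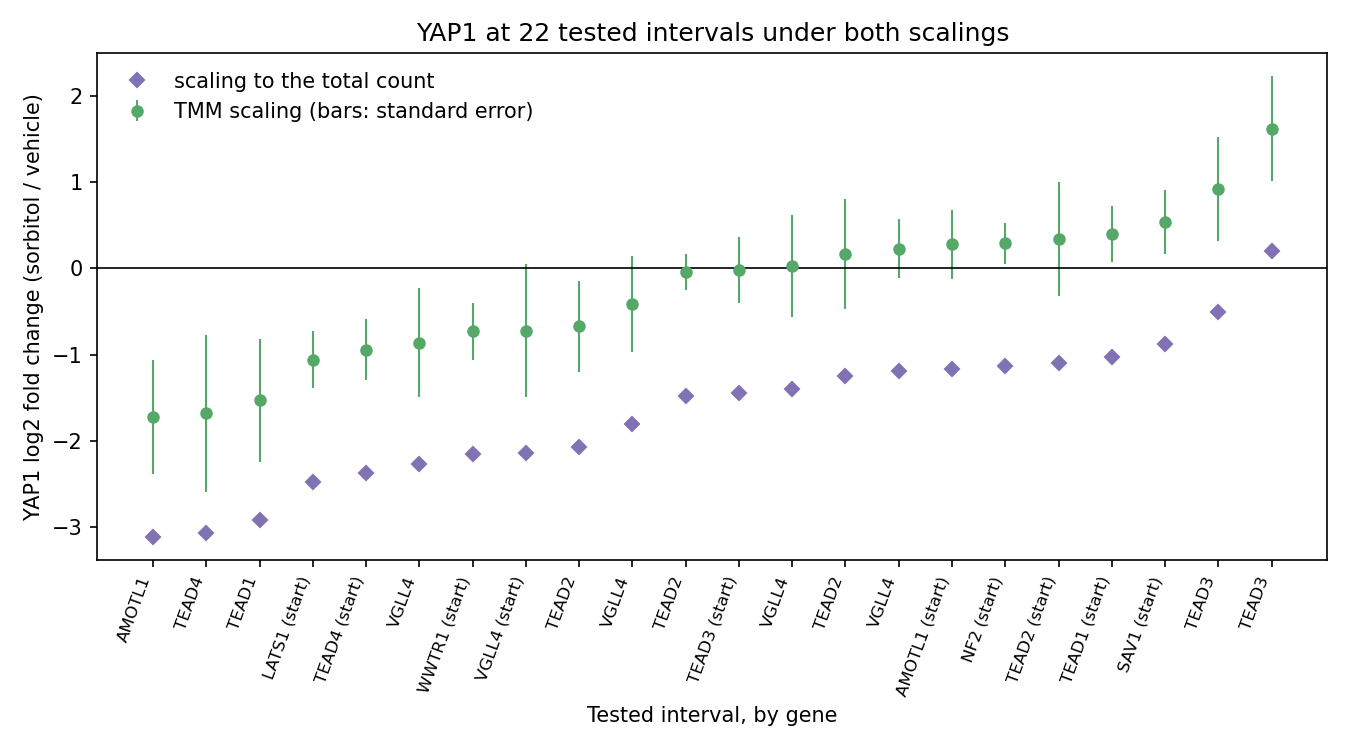
YAP1 log2 fold change (sorbitol over vehicle) of the 22 tested intervals, in rising order, under TMM scaling (circles, with bars of 1 standard error) and under scaling to the total count (diamonds). The diamonds lie below the circles at every interval, and only a TEAD3 intron stays above 0 under total scaling, at 0.20.

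RAD21 had the fewest counts, and no tested member interval passed. Of 12 tested intervals 0 were called by edgeR and 0 by DESeq2, beside a background of 4.79% of 17011 tested intervals called by edgeR. An unadjusted edgeR p under 0.05 was found at 3 of the 12, again with no share over all intervals given. The median log2 fold change was -0.02 for the members and -0.01 for all. The TEAD2 upstream interval was again the strongest, at 58.7 ± 8.45 CPM per kb in vehicle cells and above 97.1% of tested RAD21 intervals, with 43.5 and 35.4 CPM against 28.6 and 43.2 CPM (-0.16 ± 0.33, edgeR adjusted p 0.80). A TEAD1 intron interval (chr11:12814262-12815020) had 13.5 and 14.2 CPM against 0.986 and 7.95 CPM, and its fit gave -1.67 ± 0.72 (edgeR adjusted p 0.18). At the TEAD3 start RAD21 went from 11.0 and 9.74 CPM to 16.8 and 27.3 CPM, the same direction as CTCF there, at 1.06 ± 0.47 (edgeR adjusted p 0.19). At WWTR1 it went from 21.2 and 14.2 CPM to 5.91 and 10.2 CPM (-1.18 ± 0.52, edgeR adjusted p 0.20). This WWTR1 interval and the TEAD1 intron interval entered the test through their vehicle counts alone, so only a fall could have been called there. The 12 tested intervals had between 1 and 119 RAD21 counts in a library, which limits what the test can resolve.

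The difference between responses was tested directly in fits over 8 libraries. Between YAP1 and H3K27ac it passed at 3 of 65 tested member intervals, each with YAP1 below H3K27ac, beside a background of 6.27% of 52935. The LATS1 start had the clearest difference, with YAP1 lower than H3K27ac by 1.81 on the log2 scale (-1.81 ± 0.31, edgeR adjusted p 3.8e-06). The rise of acetylation in this interval, which also covers a start of another gene, was thus not matched by YAP1. The WWTR1 start had -1.03 ± 0.32 (edgeR adjusted p 0.029), and a TEAD1 intron interval (chr11:12746572-12747096) had -2.39 ± 0.75 (edgeR adjusted p 0.033). At the latter YAP1 went from 4.54 and 5.73 CPM to 1.79 and 1.69 CPM and H3K27ac from 7.09 and 6.87 CPM to 10.0 and 9.69 CPM. Between RAD21 and CTCF the difference passed at 1 of 32 tested member intervals, beside a background of 0.83% of 42641. This was the TEAD2 upstream interval, where RAD21 was below CTCF by 1.65 (-1.65 ± 0.36, edgeR adjusted p 0.019).

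As a share of the counts outside the mitochondrial, YAP1-gene and other dominant intervals, the 77 intervals together held 0.111% ± 0.000127 of H3K27ac counts with vehicle and 0.124% ± 0.00136 with sorbitol. For YAP1 the share was 0.103% ± 0.00214 and 0.0829% ± 0.000676, for RAD21 0.0799% ± 0.00539 and 0.0696% ± 0.00905, and for CTCF 0.0460% ± 0.000442 and 0.0466% ± 0.00352. The shares of H3K27ac and YAP1 changed by more than the spread between replicates in opposite directions. The exact two-sided permutation p was 0.33 for H3K27ac, YAP1 and RAD21, the smallest that 2 against 2 libraries allow, and 1.0 for CTCF.

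The other genes of the pathway, a list of 26 of which 25 had 159 intervals by the same rule, give the surroundings of these results. For H3K27ac 33 of 136 tested intervals passed, 18 higher and 15 lower, which is 24.3% beside the background of 23.1%. For CTCF 15 of 63 passed, 6 higher and 9 lower, or 23.8% beside 40.2%. For YAP1 1 of 47 passed and for RAD21 1 of 28, beside 6.83% and 4.79%. The balance of H3K27ac depended on the scaling, with 31 higher and 9 lower under scaling to the total count and 4 higher and 35 lower under scaling to the weakest 25%, both chosen for this list after seeing the data. Total scaling also gave 38 lower for CTCF, beside 21042 of all 39261, and 40 lower for YAP1, beside 14465 of all 22765. The weakest 25% gave 8 higher and 8 lower for CTCF. The YAP1 fall was at the start of AMOTL2, the paralogue of AMOTL1 (-1.47 ± 0.24, edgeR adjusted p 4.1e-04), where H3K27ac was not called (0.05, edgeR adjusted p 0.70).

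Among the kinases and their adaptors, H3K27ac rose at the starts of TAOK1 (0.51 ± 0.07), MAP4K4 (0.35 ± 0.11), MOB1B (0.24 ± 0.08) and WWC1 (0.29 ± 0.08). It fell at those of FRMD6 (-0.52 ± 0.08), MOB1A (-0.47 ± 0.12) and STK3 (-0.51 ± 0.16) and at an alternative start of RASSF1 (-0.44 ± 0.07). The edgeR adjusted p ran from 2.4e-07 to 0.027. An interval 1312 bp from the nearest STK3 start rose (0.34 ± 0.1, edgeR adjusted p 0.013). PTPN14, a phosphatase that binds YAP, rose in 5 intervals, by up to 1.58 ± 0.27 in an intron. LIMD1, a LIM protein that inhibits LATS, fell in 4 intervals and rose in 1. Higher CTCF with lower H3K27ac, the pairing seen at the TEAD promoters, was called at 3 intervals of this list. The list had 63 intervals tested for CTCF and 136 for H3K27ac. The 3 intervals are named here. They were the starts of AMOT (0.98 and -0.70) and MOB1A (1.26 and -0.47) and the alternative start of RASSF1 (1.20 and -0.44). Over all 30189 intervals tested for both targets 8.90% had this pairing. A LIMD1 intron interval of the list was called lower for both (-1.82 and -0.76).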

How the data were processed

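The values deposited by the authors are raw counts of 16 libraries over shared peak intervals, unscaled whole numbers. The submitters' processing notes name hg38, Trim Galore, FastQC, BWA 0.7.17, SAMtools, Picard, bedtools 2.31.1 and MACS2 2.2.6, with no role or order. How libraries were combined for peak calling is not given in the sources used here, and a control antibody was not analysed here. Every interval lay within hg38 chromosome lengths, and coordinates are printed 1-based. All 16 columns were mapped by target, treatment and replicate in their names, and columns named as control were taken as vehicle.

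Member intervals overlap a gene or lie within 10 kb of a GENCODE release 44 start of it. The members and gene lists were chosen with earlier results of these data known. Each target was fitted on its 4 libraries over the whole table with the edgeR 4.0.16 quasi-likelihood test (robust, two-sided, R 4.3.3), with filterByExpr at a minimum of 10 counts, TMM scaling and Benjamini-Hochberg adjustment over all tested intervals. Standard errors come from the F statistic. Differences between targets are interaction terms over 8 libraries. CPM uses TMM-scaled library sizes. The fit was tested on simulated data. The text names all 10 genes, the start interval and the interval with the highest YAP1 level of each, and every called member interval, since no target had more than 8 calls in a direction. Motifs and GC content were read with pysam 0.24.0 from hg38, and promoters from RefSeq (GRCh38.p14).

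Alternatives were DESeq2 1.42.0, its size factors in edgeR, scaling to the total count or to the weakest 25% of tested intervals, a mean of at least 50 counts or no filter on counts, no dominant intervals (mitochondrial, unplaced, YAP1 gene or above 0.1% of a library), 1 fit of all 16 libraries, GC-corrected offsets (lowess, span 0.3), a block for the replicate number, both together, each library left out, and intervals within 1 kb of a start. Totals ran from 1.19 to 8.84 M counts per library. The YAP1 gene was left out of the lists because counts of every antibody lie in its exons. Intervals and bounds cover counting error only, since PCR copies are not independent molecules. A further marker of the HEK293 list is not reported here.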

Additional observations from a re-analysis of the deposited data

Results flagged for a closer look

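The sorbitol response differed between targets at 4 member intervals by the interaction test, which compares the fold changes of separate targets under the same treatment. Between YAP1 and H3K27ac the log2 difference was -1.81 at the LATS1 start (edgeR adjusted p 3.8e-06), where the alternatives gave -3.03 to -1.60 and all 14 passed. It was -1.03 at the WWTR1 start (edgeR adjusted p 0.029), from -2.25 to -0.82 with 8 of 14 alternatives passing, and -2.39 in a TEAD1 intron (edgeR adjusted p 0.033), from -3.58 to -2.28 with 6 of 13 passing. Between RAD21 and CTCF it was -1.65 at the TEAD2 upstream interval (edgeR adjusted p 0.019), from -1.93 to -1.37 with 7 of 14 passing.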

How the results depend on the processing

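Counts of called intervals are given against 13 for CTCF, 0 for RAD21, 0 for YAP1, 11 for H3K27ac, 3 for the difference of YAP1 from H3K27ac and 1 for that of RAD21 from CTCF. For CTCF they were 6 with DESeq2, beside 11340 of all 39261 tested intervals and 15770 in the main fit. GC-corrected offsets gave 8 (12239 of all 39261), and with the replicate block 5 (10215 of all 39261). A mean of at least 50 counts gave 1 of 3 tested (5927 of all 10677). Within 1 kb of a start 6 of 14 passed, beside 15770 of all 39261 at any distance. For RAD21 the fit on all 16 libraries gave 1 of 12, beside 3035 of all 17011. For YAP1 a mean of at least 50 counts gave 2 of 5 (1034 of all 4755) and no count filter 4 of 77 (2445 of all 72858). Scaling to the total count gave 17 of 22 (14803 of all 22765) and to the weakest intervals 1 of 22 (1570 of all 22765). These member calls were all lower. For H3K27ac the fit on all 16 libraries gave 4 of 68, beside 4015 of all 56601. Under total scaling the YAP1 and H3K27ac difference passed at 24 of 65 member intervals, beside 18327 of all 52935. When only intervals averaging 50 counts or more were kept, it passed at 1 of 18, beside 2713 of all 16699. The RAD21 and CTCF difference passed at 0 of 32 when DESeq2 size factors were used, beside 183 of all 42641. Total scaling also gave 0 of 32 for it, beside 139 of all 42641. For the other Hippo genes total scaling, added after seeing the data, gave 38 for CTCF in place of 15 and 40 for YAP1 in place of 1. Over all tested intervals it gave 23151 in place of 15770 for CTCF and 14803 in place of 1555 for YAP1. When a library is left out, a group left with 1 library is assumed to vary like the others. Median log2 fold changes of the tested members then ran from -0.8 to -0.28 for CTCF (-0.16 to -0.05 over all tested intervals). They ran from -0.43 to 0.23 for RAD21 (-0.16 to 0.02) and -0.25 to 0.07 for YAP1 (-0.17 to -0.05). For H3K27ac they ran from 0.2 to 0.35 (0.01 to 0.04). Medians of the YAP1 and H3K27ac difference ran from -0.91 to -0.41 (-0.57 to -0.21). Those of RAD21 and CTCF ran from -0.69 to 0.02 (-0.49 to -0.11). Same-numbered libraries did not deviate together (correlations of -0.009, -0.005, 0.005 and -0.005 for CTCF, RAD21, YAP1 and H3K27ac). The replicate block gave 10, 0, 0 and 11 calls, beside 13804 of all 39261, 471 of all 17011, 1327 of all 22765 and 13271 of all 56601. For the differences it gave 3 and 1, beside 2927 of all 52935 and 365 of all 42641. Of the start values, total scaling turned YAP1 at TEAD1 (-1.03), AMOTL1 (-1.16), NF2 (-1.13), SAV1 (-0.88) and TEAD2 (-1.10), RAD21 at NF2 (-0.48), SAV1 (-0.21) and TEAD1 (-0.33), H3K27ac at NF2 (0.04) and WWTR1 (0.09), and CTCF at NF2 (-0.49), TEAD1 (-0.17), TEAD4 (-0.05) and TEAD3 (-0.20); GC-corrected offsets gave -0.17 and -0.41 at TEAD4 and TEAD3, and -0.18 and -0.35 with the block. Where not shown by fewer tested intervals or samples, the cause was not tested. The share of intervals with a TEAD motif was 7.79% with the letters GGAATGT, and the median vehicle level was 4.20 for CTCF and 4.13 CPM per kb for YAP1 under total scaling.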
